A study of Sus scrofa with 10 samples.

Results

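Solute carriers are a large superfamily of membrane transport proteins. The genes described here are those whose single symbol in the array annotation starts with *SLC* followed by a digit, or with *SLCO*, and for which at least 1 probe set averaged 4 or more on the log2 scale over the 10 arrays. The genes *SLC2A2*, *SLC11A1*, *SLC25A20*, *SLC27A2* and *SLC40A1* were left out by rule, and 3 of these 5 were on the array. Of 120 remaining genes with such a symbol, 72 passed the minimum and 48 did not. They belong to 4730 genes that passed it in all.

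Solute carriers move amino acids, sugars, nucleotides, vitamins, metals and organic ions across the plasma membrane and the membranes of organelles, mostly by exchange or by coupling to an ion gradient. In the liver, carriers of the sinusoidal membrane take bile salts, drugs and amino acids from the blood. Carriers of the SLC25 family exchange nucleotides, phosphate and carboxylates between the cytosol and the mitochondrial matrix, and other families serve lysosomes, the endoplasmic reticulum and the Golgi apparatus.

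Liver RNA was taken from 10 female pigs of a backcross between Iberian and Landrace animals, all raised together under standard feeding, and each animal was hybridised to 1 Affymetrix GeneChip Porcine array. The 5 H animals had a high and the 5 L animals a low score on the first principal component of traits that were mostly the fatty acid composition of muscle and its indices and also included some carcass traits, with relatively more polyunsaturated fatty acids in H and more saturated and monounsaturated fatty acids in L. The groups were therefore defined by muscle and carcass traits, no agent was given to either, and sibs were placed in opposite groups, although the sources used here do not name them. The comparison asks whether the livers of animals at the 2 ends of this score express solute carriers at different levels.

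The array values are log2 intensities of probe sets, short groups of probes read as 1 transcript, and a gene's value is the mean of its passing probe sets. Each array had the same floor, 2.19, and a median over porcine probe sets of 3.77 to 3.84. All 10 hepatocyte markers on the list were measured, with a summed level of 148.6 to 150.3 in H and 149.5 to 150.4 in L. Of the markers of other cells, 2 bile duct, 3 Kupffer cell, 3 endothelial and 4 stellate cell markers were measured. So were 1 marker of red cells, 1 of B and plasma cells and 1 of T and NK cells. None of these markers differed between the groups at an unadjusted p below 0.05. The skeletal muscle markers *MYH7*, *CKM* and *TNNT1* stayed near the lowest value. The arrays read a piece of whole liver, so fewer cells of a type and less RNA per cell cannot be told apart.

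Among the transporters, mitochondrial carriers had the highest share of genes measured, 18 of 20. This class is the whole SLC25 family and includes *SLC25A17*, a carrier of peroxisomes. The measured shares were 9 of 12 for metal carriers, 9 of 13 for carriers of nucleosides and nucleotide sugars, 11 of 21 for amino acid and peptide carriers, 5 of 10 for organic ion and bile salt carriers, 5 of 15 for sugar carriers, 4 of 12 for inorganic ion carriers and 6 of 10 for carriers of vitamins, choline and other solutes. The 15 include *SLC5A5*, which was below the minimum and was not among the sugar carriers of the plan. *SLC16A13*, a member of the monocarboxylate carrier family, and *SLC27A6*, a fatty acid transport protein, stood alone in their classes. *SLC9A3R1*, *SLC9A3R2* and *SLC2A4RG* carry an *SLC* symbol but encode adaptors or a transcriptional regulator and not transporters. Of the 48 genes below the minimum, 37 had every probe set within 0.5 of the lowest value on all arrays. Among these examples, chosen after their values were seen, were *SLC2A4*, the insulin-responsive glucose transporter of muscle and fat, *SLC15A1*, the intestinal peptide transporter, and *SLC22A8*, an organic anion transporter of kidney, each with a mean of 2.19. Just inside the minimum lay *SLC25A14* at 4.01, *SLC25A21* at 4.37 and *SLC6A8* at 4.45, and just outside it *SLCO3A1* at 3.94, *SLC29A1* at 3.87 and *SLC28A3* at 3.63.

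No solute carrier differed between H and L at a limma adjusted p below 0.05, the same as over all genes tested, of which 0% passed. The smallest limma adjusted p among the 72 genes was 0.985. At an unadjusted p below 0.05, 3 genes passed, beside 2.64% of all genes. All 3 were lower in H, beside 1.84% of all genes in that direction, and 0 were higher in H, beside 0.803%. In no solute carrier did the values of the groups lie fully apart, beside 0.359% of all genes. The difference H minus L was above 0 in 30 genes and below 0 in 42, so 41.7% lay above 0 beside 37.2% of all genes. The median difference was -0.04 on the log2 scale, and it was also -0.04 over all genes. Differences ran from -0.65 in *SLC2A3* to 0.55 in *SLC1A2*, and in 14 genes the 95% interval reached past 1 log2 unit, a fold of 2. The number of genes at an unadjusted p below 0.05 moved with single animals, and so did the share over all genes. The number was 8 without L2, beside 5.94% of all genes, 5 without H2, beside 4.5%, and 1 without L3 or without L5, beside 2.26% and 2.35%. Among the 32 genes named by rule, leaving out 1 animal turned the sign of the difference or moved it by more than 1.5 times in 27.

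**Figure D1:**
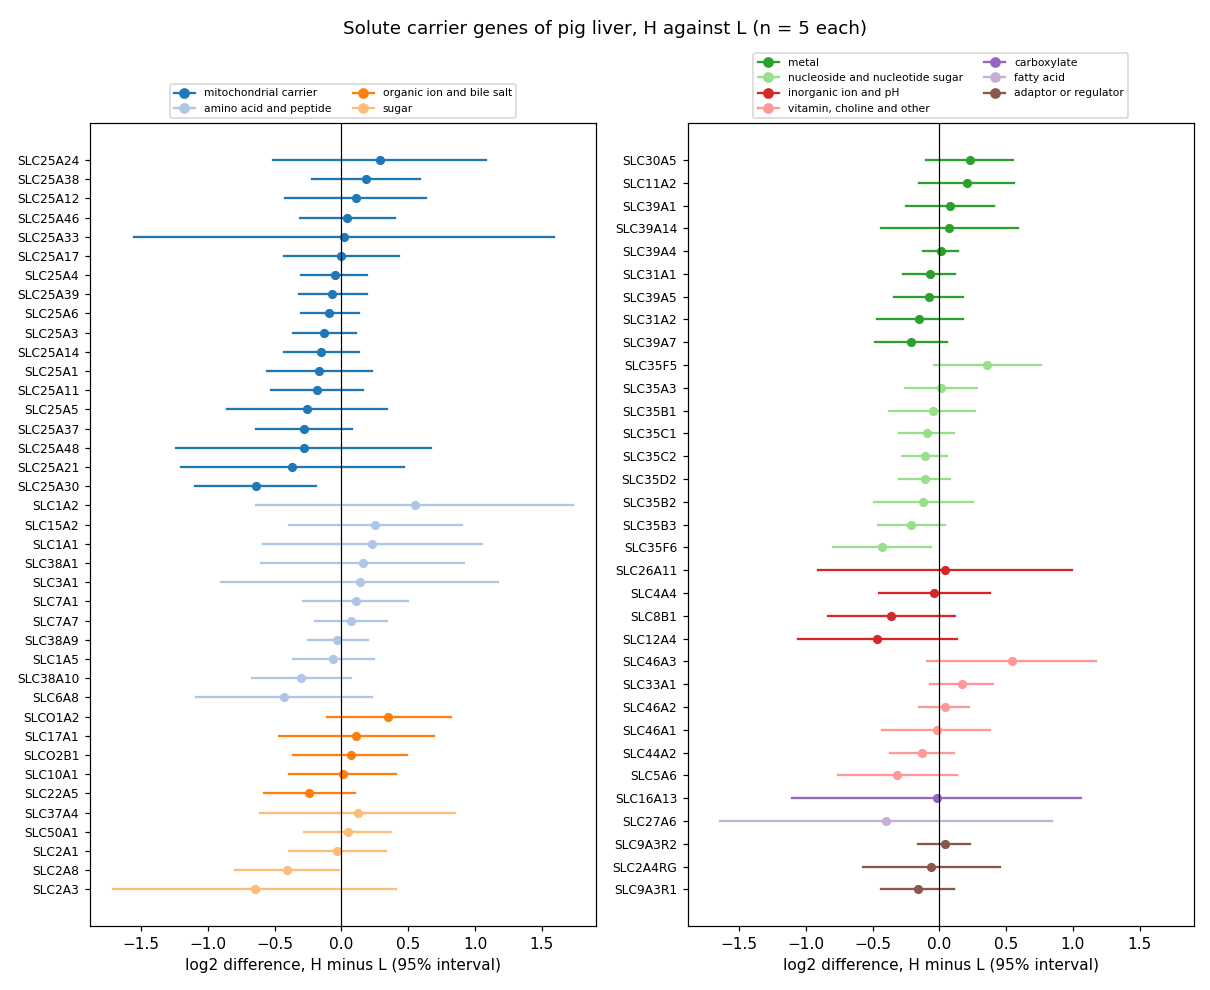
Log2 difference H minus L of each of the 72 solute carrier genes (points, horizontal axis in log2 units) with its 95% limma interval (bars), coloured by substrate class. Intervals of most genes cross 0, and the differences run from -0.65 to 0.55.

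The smallest unadjusted p belonged to *SLC25A30*, a carrier of the inner mitochondrial membrane. Its log2 values were 7.76, 8.56, 7.74, 8.55 and 7.85 in H1 to H5 and 8.93, 8.65, 9.08, 8.45 and 8.55 in L1 to L5. H1, H3 and H5 lay below every L animal, while H2 and H4 lay within the L range, so the groups overlapped. H averaged 8.09 ± 0.42 and L 8.73 ± 0.26 (SD, n = 5). The log2 difference was -0.64 with a standard error of 0.20 (limma unadjusted p = 0.0103, adjusted p = 0.985), and the two-sided exact permutation p was 0.0556. It had an unadjusted p below 0.05 without each animal in turn and under each other setting tried.

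*SLC35F6*, a membrane protein of the nucleotide sugar carrier family, had values of 4.55, 5.10, 4.68, 4.51 and 4.70 in H1 to H5 and 5.25, 4.60, 5.46, 5.16 and 5.23 in L1 to L5. L1, L3, L4 and L5 lay above every H animal, and L2 within the H range. The log2 difference was -0.43 with a standard error of 0.17 (limma unadjusted p = 0.0271, adjusted p = 0.985; exact permutation p = 0.0476). Its 2 probe sets had an r of 0.12 over the 10 animals (permutation p = 0.735, adjusted 0.735; rho = 0.309, permutation p = 0.389, adjusted 0.453), and an r of 0.336 without L3 and L4. They gave log2 differences of -0.73 ± 0.21 and -0.14 ± 0.26 (SE). The first of these had a limma unadjusted p of 0.00585 and an adjusted p of 0.991 over all probe sets. The unadjusted p of the gene was 0.0542 to 0.0667 without H1, H4, L1, L3 or L5, and 0.0734 with the animal number as a block.

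*SLC2A8*, the intracellular hexose transporter GLUT8, had values of 6.68, 6.91, 6.85, 6.95 and 6.42 in H1 to H5 and 6.75, 6.91, 7.50, 7.59 and 7.10 in L1 to L5. L3, L4 and L5 lay above every H animal, and L1 and L2 within the H range. The log2 difference was -0.41 with a standard error of 0.18 (limma unadjusted p = 0.0423, adjusted p = 0.985; exact permutation p = 0.0794). Its unadjusted p was 0.0551 to 0.103 without H1, H3, H5, L3, L4 or L5. Of the 90 passing probe sets of the solute carriers, 3 had an unadjusted limma p below 0.05, beside 3.09% of all probe sets tested.

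The genes nearest to the threshold in the other direction were *SLC35F5*, a member of the nucleotide sugar carrier family, and *SLC46A3*, a lysosomal membrane carrier. *SLC35F5* had values of 9.92, 9.48, 9.97, 10.18 and 10.18 in H1 to H5 and 9.78, 9.99, 9.28, 9.25 and 9.63 in L1 to L5. H4 and H5 lay above every L animal, and the other H animals within the L range. *SLC46A3* had values of 7.67, 8.01, 7.95, 6.69 and 8.15 in H1 to H5 and 7.30, 7.42, 6.57, 6.97 and 7.53 in L1 to L5. Here 4 of the 5 H animals lay above every L animal, and H4 within the L range. The log2 differences were 0.36 ± 0.18 and 0.54 ± 0.28 (SE), with limma unadjusted p of 0.0712 and 0.085 and exact permutation p of 0.111 and 0.135. The unadjusted p of *SLC35F5* was 0.0162 without H2 and 0.0256 without L2, and that of *SLC46A3* was 0.00288 without H4.

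In the mitochondrial carriers, 5 genes lay above 0 and 13 below, with a median log2 difference of -0.11. Over all genes 37.2% lay above 0 with a median of -0.04, a background for the signs in every class and list below. Only *SLC25A30* passed an unadjusted p below 0.05. The adenine nucleotide translocases, which exchange ADP for ATP, had log2 differences of -0.05 (*SLC25A4*), -0.26 (*SLC25A5*) and -0.09 (*SLC25A6*). That of the phosphate carrier *SLC25A3* was -0.13, and that of the citrate carrier *SLC25A1*, which delivers citrate for fatty acid synthesis, was -0.17, or 0.00 without L4. *SLC25A5* had values of 10.27, 10.50, 10.57, 11.35 and 10.77 in H1 to H5 and 10.23, 10.60, 11.42, 11.48 and 11.02 in L1 to L5. It was highest in H4, L3 and L4, and its spread crossed the groups. Leaving out 1 animal gave log2 differences of -0.44 (without L1) to -0.13 (without L4). Of 10 listed genes of mitochondrial transport outside the family, 6 were measured, among them the pyruvate carrier subunits *MPC1* and *MPC2* and the porins *VDAC1* to *VDAC3*. All 6 lay below 0, beside 2972 of all 4730 genes. Their median log2 difference was -0.10, beside -0.04 over all genes, and 0 passed an unadjusted p below 0.05.

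The mitochondrial class also held the gene with the widest range of all solute carriers. *SLC25A33*, a pyrimidine nucleotide carrier, had values of 5.53, 6.18, 5.85, 7.87 and 6.06 in H1 to H5 and 6.28, 6.03, 8.65, 6.09 and 4.35 in L1 to L5. L3 and H4 stood above the other animals and L5 below them, a span of 4.30 log2 units or 19.7-fold. This span rests on 1 probe set, as another probe set of the gene had a mean of 2.19, the floor. The group means were close, with a log2 difference of 0.02 ± 0.71 (SE), which was -0.46 without L5 and 0.61 without L3. *SLC25A48*, whose values ran from 4.32 in H4 to 6.61 in H5, and *SLC25A21*, a carrier of oxodicarboxylates with values from 2.82 in H1 to 5.00, also spanned more than 2 log2 units. In *SLC25A21* the span rests on H1, as the other animals lay between 4.01 and 5.00, with the floor at 2.19.

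In the amino acid and peptide carriers, 7 genes lay above 0 and 4 below, with a median log2 difference of 0.11 and 0 at an unadjusted p below 0.05. Their spread between animals was the widest among the classes of 3 or more genes, with a median SD within groups of 0.51 log2 units beside 0.22 over all genes. *SLC1A2*, a high-affinity glutamate transporter, had values of 10.19, 9.50, 9.53, 11.44 and 8.0 in H1 to H5 and 10.01, 8.71, 8.87, 9.25 and 9.07 in L1 to L5. The highest and the lowest value both came from H animals, and the span of 3.44 log2 units was 10.9-fold. The log2 difference was 0.55 ± 0.53 (SE). It was 0.12 without H4 and 0.98 without H5, where the unadjusted limma p was 0.0418.

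*SLC3A1*, the heavy subunit of the cystine and dibasic amino acid exchanger, had values of 7.52, 7.19, 6.83, 5.13 and 6.97 in H1 to H5 and 6.57, 7.35, 6.64, 5.44 and 6.95 in L1 to L5. It was lowest in H4 and L4, 1 animal of each group. Its 2 probe sets had an r of 0.24 over the 10 animals (permutation p = 0.515, adjusted 0.54; rho = 0.152, permutation p = 0.681, adjusted 0.753), and an r of -0.302 without H4 and L4. The first ran from 3.96 in H4 to 8.65 in H1 and was lowest in H4 and L4, and the second ran from 5.72 in L1 to 6.92 in L3.

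*SLC15A2*, a proton-coupled peptide transporter, was low in H4, L3 and L4, at 7.43, 7.08 and 7.23, and between 7.95 and 8.43 in the other animals. Its 3 probe sets had r of 0.952 to 0.966 between them. In the 15 genes with several passing probe sets there were 21 pairs of these, and r ran from 0.12 to 0.979 with a median of 0.73. Of these pairs, 17 had an adjusted permutation p below 0.05. Probe sets below the minimum, which other members also had, did not enter. Without the 2 animals farthest from the median, r was under 0.4 in 7 of the 21 pairs, of which 3 were among the 17. *SLC38A1*, a sodium-coupled neutral amino acid transporter, ran from 6.82 in L4 to 8.33 in L2, with H4, H5, L4 and L5 at or below 7.12. *SLC1A1*, a glutamate and aspartate transporter, ran from 5.37 in H3 to 7.21 in H4. The log2 differences of these 3 genes were 0.25 ± 0.29, 0.16 ± 0.34 and 0.23 ± 0.37 (SE). Only 1 probe set of *SLC1A1* passed the minimum, and over all its probe sets the difference was 0.08. *SLC38A10*, a member of the same family as *SLC38A1*, had values of 8.04, 8.27, 7.80, 7.41 and 7.83 in H1 to H5 and 8.38, 7.88, 8.12, 8.44 and 8.04 in L1 to L5. H3, H4 and H5 lay below every L animal, and H1 and H2 within the L range. Its log2 difference was -0.30 ± 0.17 (SE), with a limma unadjusted p of 0.0992 and an exact permutation p of 0.127, and the unadjusted p was 0.03 without H2. *SLC6A8*, the creatine transporter, chosen after its values were seen, lay between 4.07 and 4.37 in 9 animals and at 5.97 in L3.

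Of 18 listed genes of the urea cycle and amino acid breakdown, 13 were measured. Of these, 9 lay above 0 and 4 below, with a median log2 difference of 0.13, and 0 passed an unadjusted p below 0.05. Serine dehydratase *SDS*, an example chosen after its values were seen, had the largest difference, 1.44 ± 1.29 (SE). Of 18 listed genes of the amino acid starvation response driven by ATF4, 12 were measured. Of these, 2 lay above 0 and 10 below, with a median of -0.11 and 0 at an unadjusted p below 0.05. Over all genes, 37.2% lay above 0.

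**Figure D2:**
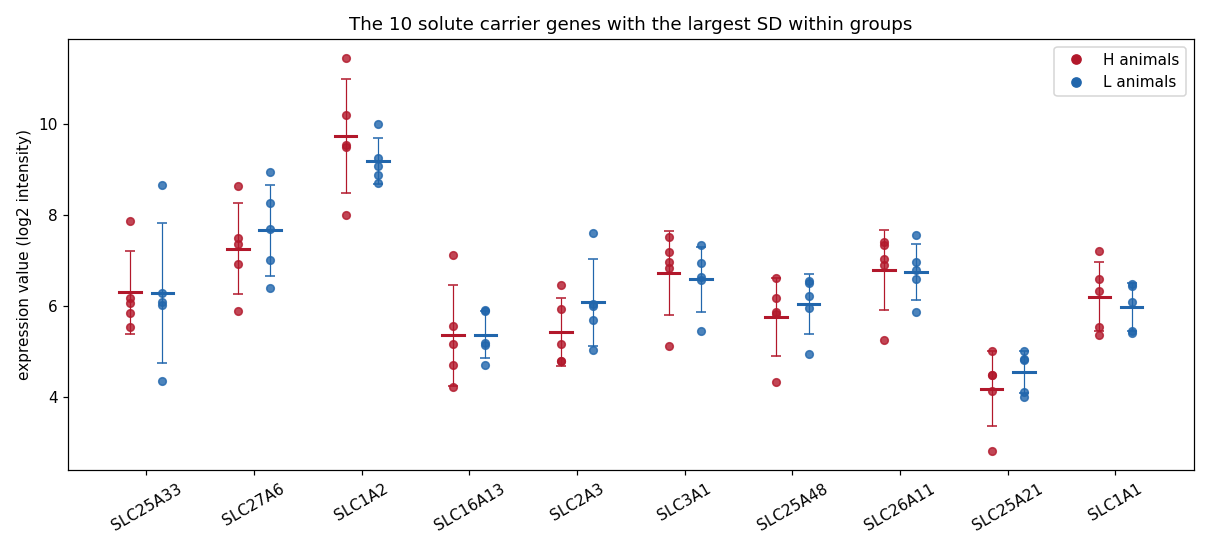
Log2 intensity (vertical axis) of the 10 solute carrier genes with the largest SD within groups, 1 point per animal, H in red and L in blue, with the group mean and SD as bars. In each gene the H and L points overlap, as in *SLC25A33*, where the values run from 4.35 to 8.65.

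In the organic ion and bile salt carriers, 4 genes lay above 0 and 1 below, with a median log2 difference of 0.07 and 0 at an unadjusted p below 0.05. *SLC10A1*, the sodium-dependent bile salt uptake carrier of hepatocytes, had values of 12.58, 11.96, 12.05, 11.71 and 12.34 in H1 to H5 and 12.02, 12.40, 11.81, 11.97 and 12.41 in L1 to L5. The group means were 12.13 ± 0.34 and 12.12 ± 0.27 (SD, n = 5), with a log2 difference of 0.01 and a 95% interval of -0.39 to 0.41. *SLCO1A2*, an organic anion transporter, ran from 4.77 to 5.76 in H and from 4.55 to 5.30 in L, with 4 of the 5 L animals below every H animal. Its log2 difference was 0.35 ± 0.21 (SE), or 0.49 without L2, where the unadjusted limma p was 0.03. The differences were 0.07 in *SLCO2B1*, an organic anion uptake transporter, 0.11 in *SLC17A1*, a phosphate and urate transporter, and -0.24 in *SLC22A5*, the carnitine transporter. *SLC10A1*, *SLC17A1* and *SLC22A5* were each lowest in H4.

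Of 24 pairs of genes that work in 1 transport step or pathway, 3 could be computed. *SLC10A1* and *ABCB11*, the pump that exports bile salts into bile, varied together over the 10 animals (r = 0.802, permutation p = 0.00339, adjusted over the 3 pairs 0.0102; rho = 0.842, permutation p = 0.00347, adjusted 0.0104). *ABCB11* had values of 8.76, 8.19, 8.04, 7.75 and 8.46 in H1 to H5 and 8.27, 8.40, 7.0, 7.57 and 8.29 in L1 to L5. H1 was the highest animal in both genes, H4 and L3 were the lowest in *SLC10A1*, and L3, L4 and H4 the lowest in *ABCB11*. Without H1 and L5, the animals farthest from the median of *SLC10A1*, r was 0.735. After subtracting the mean of H and of L, r was 0.849. Without H1 alone r was 0.736 with an adjusted permutation p of 0.0607. The pairs *SLC25A1* with the fatty acid synthase *FASN* (r = -0.298, permutation p = 0.405, adjusted 0.607; rho = -0.486, permutation p = 0.154, adjusted 0.23) and *SLC39A14* with the metallothionein *MT1A* (r = 0.0775, permutation p = 0.847, adjusted 0.847; rho = 0.103, permutation p = 0.786, adjusted 0.786) did not pass. Without the 2 farthest animals their r was -0.323 and 0.0597.

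**Figure D3:**
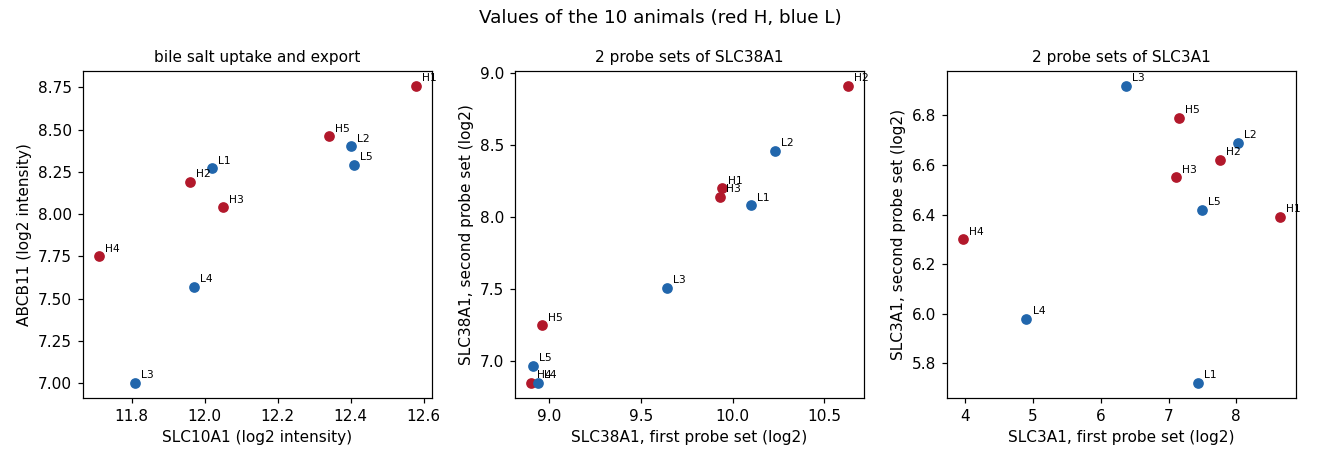
Log2 intensities of the 10 animals (points, H red and L blue) for *SLC10A1* against *ABCB11* and for 2 probe sets each of *SLC38A1* and *SLC3A1*. The points rise together in the first panel (r = 0.802) and in the second (r = 0.979), and H4 and L4 lie to the left in the third (r = 0.24).

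In the sugar carriers, 2 genes lay above 0 and 3 below, with a median log2 difference of -0.03. *SLC2A3*, a high-affinity glucose transporter, had values of 4.78, 5.17, 6.46, 5.93 and 4.80 in H1 to H5 and 6.01, 5.03, 5.70, 6.04 and 7.61 in L1 to L5. L5 stood above all other animals. The log2 difference was -0.65 ± 0.48 (SE), and -0.27 without L5. *SLC2A3* is used by blood cells. Log2 values were summed over all listed markers on the array, also those below the minimum. These were 2 of red cells, 2 of B and plasma cells, 4 of T and NK cells and 4 of Kupffer cells. Among them *CD79B*, *CD3E*, *CD3D* and *MARCO* stayed near the lowest value on all arrays, so part of each such sum is floor. The summed level of red cell markers was 11.4 to 13.4 in H and 11.2 to 12.1 in L. It was 11.5 to 12.5 and 11.3 to 13.6 for B and plasma cells, and 11.5 to 12.3 and 11.5 to 12.8 for T and NK cells. For Kupffer cells, the macrophages of liver, it was 23.3 to 25.2 in H and 24.2 to 25.2 in L. The part of these cells in the result was not tested. *SLC37A4*, which carries glucose 6-phosphate into the endoplasmic reticulum, had values of 10.86, 11.38, 12.08, 10.57 and 10.42 in H1 to H5 and 11.19, 10.95, 10.14, 11.25 and 11.17 in L1 to L5. H3 was highest and L3 lowest. Its 2 probe sets gave log2 differences of opposite sign, -0.06 and 0.30, the only gene of the 15 with several passing probe sets to do so.

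Metal carriers had a median SD within groups of 0.24, beside 0.22 over all genes, and the highest was 0.41. Of 9 genes, 5 lay above 0 and 4 below, with a median log2 difference of 0.01. *SLC39A14*, which takes up zinc, iron and manganese, had values of 8.61, 9.83, 8.82, 8.74 and 8.74 in H1 to H5 and 9.17, 8.99, 8.81, 8.98 and 8.43 in L1 to L5. H2 stood alone, and the log2 difference of 0.07 turned to -0.15 without it. The log2 differences were 0.23 in *SLC30A5*, a zinc exporter of the secretory pathway, 0.21 in the iron transporter *SLC11A2* and -0.21 in the zinc transporter *SLC39A7*. *SLC31A1*, the copper importer, had an SD within groups of only 0.12. Of 13 listed metal handling genes outside the family, 7 were measured. All 7 lay below 0, beside 2972 of all 4730 genes. Their median log2 difference was -0.04, the same as over all genes, and 0 passed an unadjusted p below 0.05.

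Nucleoside and nucleotide sugar carriers had the narrowest spread, with a median SD within groups of 0.19. Of these, 2 genes lay above 0 and 7 below, with a median log2 difference of -0.11, beside 37.2% above 0 and -0.04 over all genes. *SLC35B3*, which carries the sulfate donor PAPS into the Golgi apparatus, was below 6.91 in all 5 H animals except H4, at 7.0, and between 6.91 and 7.09 in L. Its log2 difference was -0.21 (limma unadjusted p = 0.09, exact permutation p = 0.0476). It was -0.11 without H1, and without H4 its unadjusted p was 0.0371. In the inorganic ion carriers, 1 gene lay above 0 and 3 below, with a median of -0.20. *SLC12A4*, a potassium chloride cotransporter, had a log2 difference of -0.47 ± 0.27 (SE), with H5 at 7.72 above all others. Its unadjusted limma p was 0.11 with all animals. Without H5 the difference was -0.73 with an unadjusted limma p of 0.000802 and an adjusted p of 0.999, and without H2 it was -0.31. H5 was the only animal whose removal gave an unadjusted p below 0.05. *SLC26A11*, a sulfate and anion transporter, lay at 5.26 in H5 and 5.87 in L1 and between 6.59 and 7.56 in the rest. Another probe set of this gene, below the minimum, had a mean of 2.19. In the carriers of vitamins, choline and other solutes, 3 genes lay above 0 and 3 below, with a median of 0.01. *SLC33A1*, the acetyl-CoA transporter, had a log2 difference of 0.17, and *SLC5A6*, the multivitamin transporter, one of -0.32.

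Outside these classes, *SLC27A6* had values of 8.63, 7.49, 7.37, 6.92 and 5.88 in H1 to H5 and 7.02, 8.26, 7.69, 6.39 and 8.94 in L1 to L5. Each group spanned most of the range, which was 8.32-fold, and the log2 difference was -0.40 ± 0.56 (SE). It was -0.75 without H1, -0.06 without H5 and -0.08 without L5. Only 1 probe set of *SLC27A6* passed the minimum, and the others had means of 2.19. Over all its probe sets the difference was -0.13. *SLC16A13* ran from 4.21 in H3 to 7.11 in H4, both H animals. *SLC9A3R1*, a scaffold that anchors transporters to the cytoskeleton, had a log2 difference of -0.16, and *SLC2A4RG*, named as a regulator of the glucose transporter gene *SLC2A4*, one of -0.06. Pumps that drive carriers, such as the sodium pump subunit *ATP1B1*, were measured for 5 of 9 listed genes, 2 above and 3 below 0. Of 9 other transporters of organic ions, 5 were measured, 2 above and 3 below 0, and none of either list passed an unadjusted p below 0.05.

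**Figure D4:**
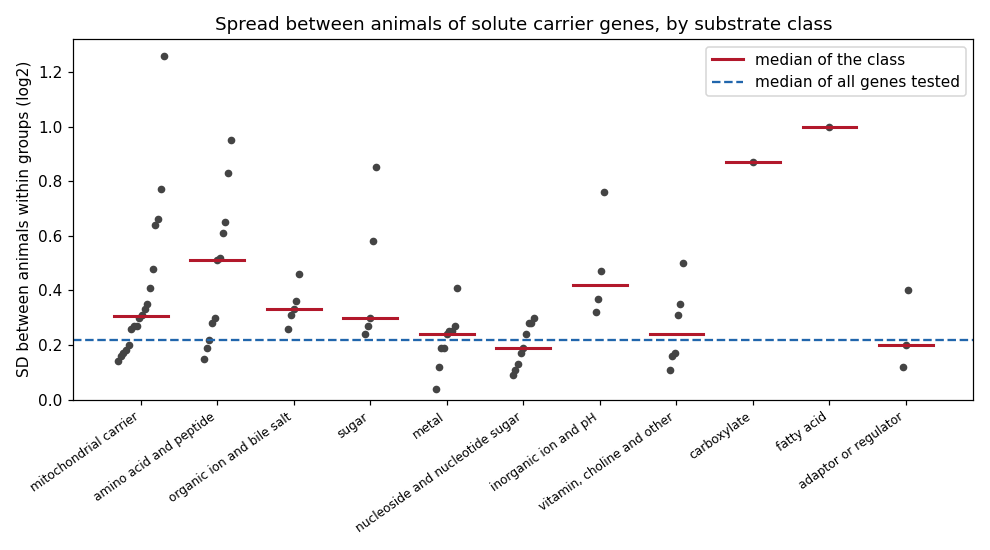
SD between animals within groups (vertical axis, log2 units) of each solute carrier gene (points), by substrate class, with the class median (red lines) and the median of all genes tested (dashed line, 0.22). The class median is 0.51 in amino acid and peptide carriers and 0.19 in nucleoside and nucleotide sugar carriers.

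Regardless of sign, the log2 difference between H and L had a median of 0.13 over the 72 genes and of 0.10 over all genes. The median SD within groups was 0.29 over the 72 genes and 0.22 over all genes. It exceeded 0.5 in 15 solute carriers, 20.8%, beside 8.84% of all genes. Of the amino acid and peptide carriers, 6 of 11 were among these 15. The values spanned at least 2 log2 units in 9 solute carriers, 12.5%, beside 4.67% of all genes, and at least 1 log2 unit in 34, 47.2%, beside 27.3%. A span below 0.5 was seen in 12 genes, a count whose share over all genes was not computed. They include *SLC39A4*, *SLC46A2* and *SLC35C1*, which held 1 value on 7, 4 and 6 arrays. In 7 genes, with means of 4.01 to 6.50, each probe set held a value equal to 6 decimals on 3 or more arrays, as in *SLC39A4* with 1 value on 7 arrays.

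To follow a class across animals, the deviations of its genes from their own means over the 10 arrays were averaged. The mitochondrial carriers ran from -0.20 in H1 to 0.18 in L3, with H4 and L4 both at 0.11. The amino acid carriers ran from -0.32 in L4 to 0.20 in H2. The organic ion carriers were at -0.37 in H4 and -0.33 in L3 and at 0.32 in H1. Animals of both groups thus lay at the low end of the organic ion carriers. The sugar carriers ran from -0.42 in H5 to 0.49 in H3, and the metal carriers spanned only 0.17. Over all solute carriers, H averaged -0.03 ± 0.04 and L 0.03 ± 0.04 (SD, n = 5), beside -0.02 ± 0.03 and 0.02 ± 0.04 over all genes tested.

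**Figure D5:**
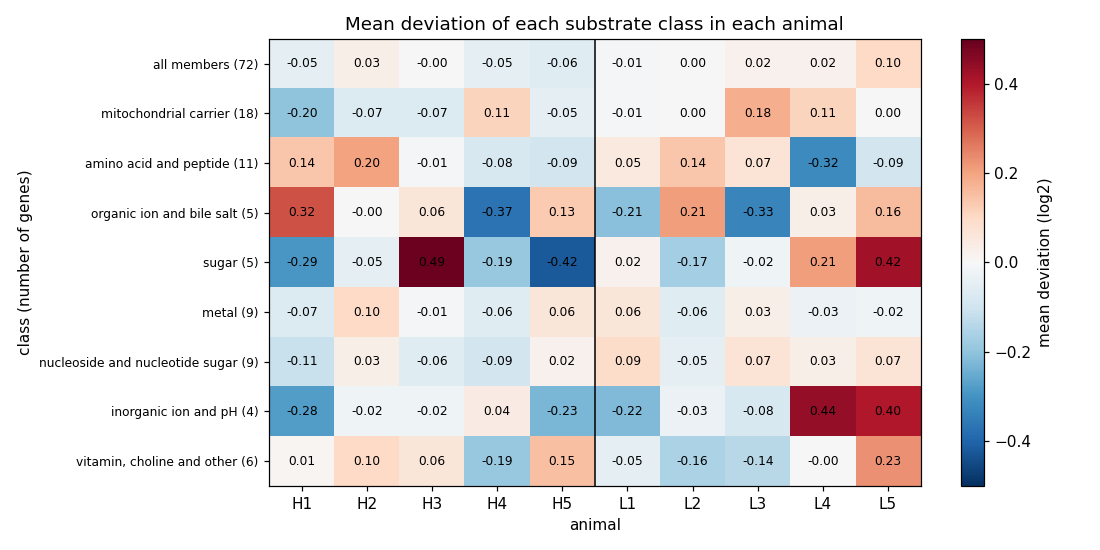
Mean deviation (colour, log2 units) of the genes of each substrate class from their own means, in each animal (columns, H left and L right of the line). The organic ion carriers are low in H4 (-0.37) and L3 (-0.33), and the sugar carriers are high in H3 (0.49) and L5 (0.42).

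Single animals contributed unequally to the extremes. H4 held the highest or lowest value in 25 genes, 34.7%, beside 23.0% of all genes. It was the lowest in 19 of the 72 genes, beside 13.5% of all genes. Among these was *SLC39A4*, where H1 and H4 both lay at 4.92 after rounding. H5 held 24 genes, 33.3%, beside 17.7%. L3 held 20, 27.8%, beside 28.9%. H2 and L2 held 6 each, 8.33%, beside 18.4% and 13.6% of all genes. H4, L3 and L4, which fall in both groups, were the 3 highest animals for *SLC25A5* and the 3 lowest for *SLC15A2*, *SLC46A3* and *SLC25A38*, a glycine carrier of mitochondria named after its values were seen.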

How the data were processed

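Liver RNA of 5 H and 5 L animals was measured, 1 array per animal. The deposited table holds log2 intensities that the authors made with GCOS and GCRMA. The submitters' processing notes also name RMA, with versions not given in the sources used here. GCRMA gives probe sets without signal a common lowest value, so differences of dim genes can be understated. Of 24123 probe sets, 124 controls were left out. Of the rest, 10069 had 1 symbol, 198 several and 13732 none in the platform annotation, and only those with 1 symbol, 9961 of them updated through Entrez ID, named a gene. A gene's value is the mean of its probe sets that averaged 4 or more.

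H and L were compared over 4730 genes and 11756 probe sets by a two-sided limma test without covariates (limma 3.58.1, functions lmFit and eBayes, run under R 4.3.3), and p was adjusted by Benjamini-Hochberg over all genes or all probe sets. Differences are H minus L, with limma's standard error. Exact permutation tests used all regroupings of the 10 animals, with a smallest possible p of 0.00794, and correlations used 100000 permutations (Python 3.11.15, numpy 2.4.6, pandas 2.3.3, scipy 1.17.1, matplotlib 3.10.9). The fit was tested on simulated data with known changes, drawn independently for each gene from a normal distribution. A limma adjusted p below 0.05 was reached by 58% of 50 genes changed 1.5-fold and 84% of 50 changed 2-fold. For changes of 3-fold and 4-fold it was 94% and 96%, and 0.155% of unchanged genes passed. Changes of about 1.5-fold could therefore often be missed. The number of arrays limits the precision, and sibship was not modelled.

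Substrate classes follow gene families, with single genes such as *SLC5A6* set in another class by plan. *SLC2A4RG* was set with the adaptors after the files were seen. *SLC5A5* was counted with the sugar carriers, outside the plan. Genes named were the 5 with the smallest unadjusted p in each direction, the 10 with the largest SD within groups, in each class of at least 3 the gene with the largest difference and that with the largest SD, members of the planned pairs, and known liver transporters. Other genes are named as examples, chosen with their values in view. The members and lists were chosen with earlier results of these data known. Alternatives were other filters, normalizations, ways to combine probe sets, priors, array weights, a *GAPDH* 3' to 5' covariate, the animal number as a block, and leaving out each animal.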

Additional observations from a re-analysis of the deposited data

Results flagged for a closer look

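In 64 groups of 5 animals, 32 named genes in H and in L, 7 had 1 animal that stood apart, by a gap to its nearest neighbour above 0.71 of the group's range. Chance alone gives about 1 in 20 groups of normally spread values, but some of the 32 genes were named for a large SD and the count is no test. The share was 10.9% in these groups, 16.7% in the 144 groups of all 72 solute carriers and 9.24% in the groups of all genes tested. A gene with a recurring value meets the rule easily, because 1 departing animal makes up most of the range. An example is *SLC35C1*, at 5.09 in L1, L2, L4 and L5 and 5.5 in L3. The part of such genes in the 16.7% was not computed. In H, H4 stood apart with 7.87 in *SLC25A33*, where the others lay between 5.53 and 6.18. H4 was also apart with 5.13 in *SLC3A1*, below 6.83 to 7.52, and with 7.32 in *SLC2A4RG*, below 7.85 to 8.02. H5 was apart with 5.26 in *SLC26A11*, below 6.91 to 7.41, and H2 with 9.83 in *SLC39A14*, above 8.61 to 8.82. In L, L3 was apart with 10.14 in *SLC37A4*, below 10.95 to 11.25, and L2 with 5.30 in *SLCO1A2*, above 4.55 to 4.64.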

How the results depend on the processing

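The number of solute carriers at a limma adjusted p below 0.05 was 0 under every alternative, and 0 to 0 with each animal left out. The number at an unadjusted p below 0.05 was 3, ranged from 1 to 8 with each animal left out, where 1.9% to 5.94% of all genes passed, and was 2 without a filter (2.59% of all genes) and 2 of 49 at a mean of at least 6 (2.44%). The median log2 difference of -0.045 ranged from -0.087 to -0.026 with each animal left out. Of 602 differences of named genes under the alternatives, only that of *SLC39A14* turned, to -0.15 without H2 (range with each animal left out -0.15 to 0.16), and 0 reached a limma adjusted p below 0.05. A difference was counted as turned where the sign changed and either value was larger than its standard error. With the animal number as a replicate block, 4 genes had an unadjusted p below 0.05 (*SLC25A30*, *SLC25A37*, *SLC2A8* and *SLC46A3*), beside 2.96% of all genes, and 0 an adjusted one. Animals sharing a number had correlations of their deviations of -0.237 to 0.281, and 1 of 5 pairs was above 0.1. Such correlations cannot decide whether the numbers pair sibs, because the sources used here do not name the sibs. The correlation of *SLC10A1* with *ABCB11* ranged from 0.736 to 0.836 with each animal left out, and at 0.736 without H1 its adjusted permutation p was 0.0607. Alternatives added after the data were seen were leaving out animals for the correlations and leaving out the 7 genes with a recurring value (equal to 6 decimals), which gave 3 genes and a median of -0.038. Values near the lowest intensity limit what dim genes can show.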
